A study of Mus musculus with 8 samples.

Results

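The mRNA that came down with an antibody against CPEB4 was compared between striatum of HD mice and striatum of WT mice. The comparison rests on 2 arrays of the 8 in the series, 1 for the CPEB4 precipitate of the HD pool and 1 for that of the WT pool. All arrays come from total striatum of male mice aged 7 to 8 months, which was pooled within each genotype; the design text names 4 mice. HD is not written out in the labels, which give no strain, transgene or promoter. From each pooled, formaldehyde-crosslinked lysate an input aliquot, an anti-CPEB4 precipitate, an anti-CPEB1 precipitate and a rabbit IgG precipitate were taken, and each was amplified over 27 cycles and hybridised to 1 array from 8 µg of cDNA. The IgG precipitate measures RNA that sticks to beads and antibody without a CPEB protein. With 1 pool and 1 array per genotype there is no replicate, so no difference was tested and no error can be given; differences are described by their size, by other probe sets of the same gene and by gene groups.

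CPEB proteins bind a U-rich element, the cytoplasmic polyadenylation element, in the 3′ untranslated region of their target mRNAs. Together with poly(A) polymerases and deadenylases they lengthen or shorten the poly(A) tail and so raise or lower translation. In neurons such mRNAs are held dormant and used at synapses. Striatum consists mostly of medium spiny neurons, GABA-releasing projection neurons that receive dopamine and cortical glutamate.

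Values are log2 probe set summaries, and a difference is HD minus WT on that scale, so 1 is a 2-fold difference. Each gene was read from 1 probe set, its brightest over the 8 arrays, and 11345 of 17097 named genes had a mean above 4.23, the median of all probe sets. Of the 5752 genes under that filter, 83 were 2-fold higher and 213 2-fold lower in the HD CPEB4 precipitate. A gene that is bright on only 1 of the arrays can fail this filter or pass through that array alone. The spread over the tested genes had SDs of 1.79 and 1.68 on the WT and HD CPEB4 arrays. On the WT and HD arrays of the other fractions the SDs were 1.68 and 1.39 (CPEB1), 1.42 and 1.28 (IgG) and 1.33 and 1.51 (input). The 2 CPEB4 arrays correlated at r = 0.899 across the 11345 genes, which share both arrays and are not independent replicates. Of 38 tested markers of medium spiny neurons, 15 stood above 8 on the input array of each genotype, as did 27 on the WT and 20 on the HD CPEB4 array.

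In the HD CPEB4 precipitate 1320 genes were 2-fold lower than in WT (11.6% of those tested) and 516 were 2-fold higher (4.55%). The median difference over all genes was 0.06. After quantile normalization of the arrays the split was 745 lower and 568 higher. In the same contrast the CPEB1 precipitates gave 17.9% lower and 3.34% higher, the IgG precipitates 10% lower and 5.32% higher, and the inputs the opposite balance, with 4.43% lower and 11.3% higher. Lower genes outnumbered higher ones in all 3 precipitates and not in the input. The SD of the array was likewise smaller in HD than in WT in all 3 precipitates and larger in the input. The part of this spread in the balance was not tested. The IgG share shows how many genes differed at this size between pools without a CPEB antibody. On the higher side the genes nearest the threshold were Spag6l, just inside it at 1.0001, and Chkb, just outside it at 0.99916. On the lower side they were Slc6a17 at -1.0016 and Man1c1 at -0.99976. Across genes the CPEB4 differences correlated with those of CPEB1 at r = 0.25, of IgG at 0.10 and of input at -0.02. Of the 1320 lower genes, 37.7% were also 2-fold lower with CPEB1, 17% with IgG and 7.95% in the input, and 697 were lower in none of these 3 (6.14% of all genes). Of the 516 higher genes, 9.3% were also higher with CPEB1, 10.9% with IgG and 13.6% in the input, and 371 were higher in none of these (3.27%). Lower in all 3 precipitates were 132 genes (1.16%), and higher in all 3 were 9 (0.0793%).

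The balance depended on the level of a gene on the CPEB4 arrays. Of 4 level groups of equal size, the dimmest, with mean levels up to 4.67, gave few calls: 1.27% were lower and 0.634% higher. In the brightest group, from 6.98 upward, 15.8% were lower and 4.94% higher, and the median difference was -0.18. The third group, from 5.56 upward, had the most calls, with 568 lower and 240 higher of 2836. Lower calls were thus commoner among brighter genes, and several gene groups below are also read against the share of the brightest group.

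**Figure D1:**
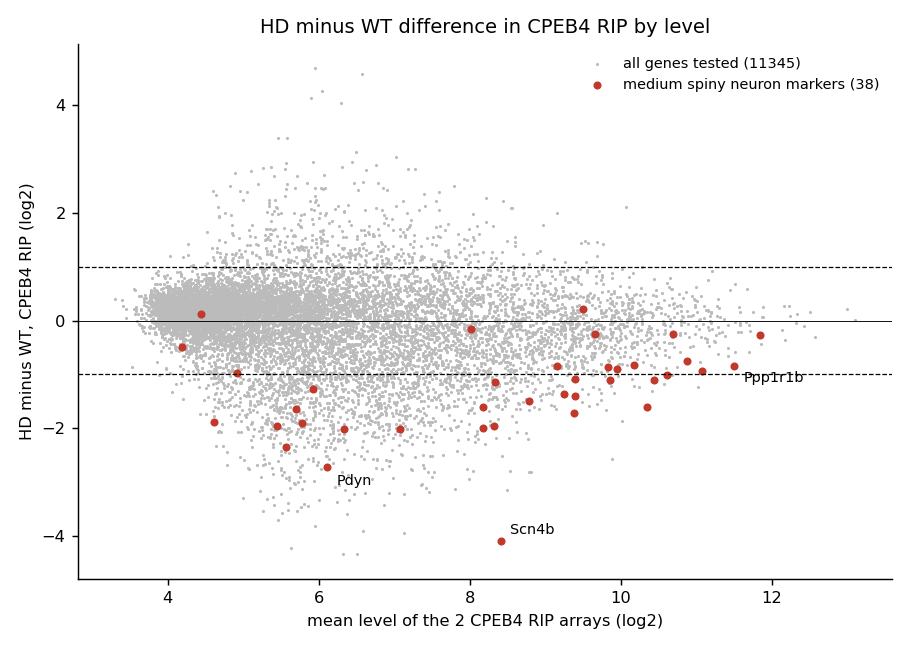
Each grey point is 1 of 11345 genes, with its mean level over the HD and WT CPEB4 arrays (log2) on the horizontal axis and its HD minus WT difference (log2) on the vertical axis; dashed lines mark 2-fold. Red points are the 38 medium spiny neuron markers, of which 23 lie below the lower line and 0 above the upper line.

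Other probe sets of a gene carry other probes on the same arrays, so they check the probe set and not the pool. Among 3407 genes with at least 2 probe sets above the filter, 513 were 2-fold lower by the first. Their next probe set was 2-fold lower too in 32.4%, against 16.6% over all 3407 genes, and 2-fold higher in 3.12%. For the 176 genes 2-fold higher by the first probe set, the next was 2-fold higher in 11.9%, against 5.22% over all, and 2-fold lower in 14.8%. All genes gave 16.6% for a 2-fold lower next probe set, so the opposite share was near the background. The SD between probe sets of a gene was 0.76. All probe sets above the filter were 2-fold lower in 132 genes (3.87%) and 2-fold higher in 16 (0.47%).

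**Figure D2:**
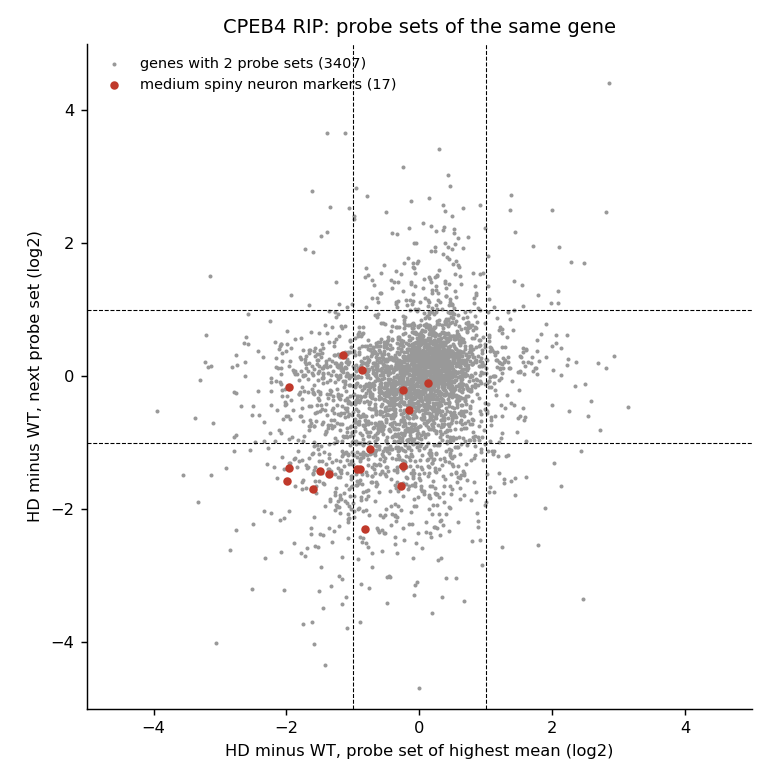
Each point is a gene with at least 2 probe sets above the filter (3407), with the HD minus WT CPEB4 difference (log2) of its brightest probe set on the horizontal axis and of its next probe set on the vertical axis; dashed lines mark 2-fold. Of the 17 medium spiny neuron markers, in red, 15 have a next probe set below 0 and 11 have one at least 2-fold lower.

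Most markers of medium spiny neurons were lower in the HD CPEB4 precipitate. Of 38 tested, 36 were below 0 in HD minus WT, 23 were 2-fold lower (60.5%, where all genes give 11.6%) and 0 were 2-fold higher, with a median of -1.13. Of the 27 markers in the brightest level group 15 were 2-fold lower, where that group gives 15.8%. Over all 69 probe sets of these genes above the filter, 63 were below 0 and 43 were 2-fold lower (62.3%), against 13.4% of all 16152 such probe sets. The median stayed between -1.14 and -1.04 under 4 other scalings. With 1 CPEB4 array per pool, fewer cells of a type, less RNA per cell and differences in precipitation or array cannot be told apart.

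The receptors and peptides that mark these neurons were among the markers that were lower. Pdyn, which encodes the dynorphin precursor of the direct pathway, stood at 7.47 on the WT and 4.75 on the HD CPEB4 array, a difference of -2.73. Penk, the enkephalin precursor of the indirect pathway, stood at 10.99 and 9.88, a difference of -1.10. Both opioid peptide genes were thus lower, Pdyn by more. Chrm4, the muscarinic M4 receptor, had 8.09 and 6.07 (-2.02), and Cnr1, the cannabinoid CB1 receptor, 8.98 and 7.38 (-1.61). In the input Cnr1 had -1.08 and Chrm4 0.04. Drd2, the dopamine D2 receptor, had 6.55 and 5.28 (-1.27), and Drd1, the D1 receptor, had 4.43 in HD and a difference of -0.97, just short of 2-fold.

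Other markers of these cells include channels, enzymes of cAMP and calcium signalling and transcription factors. Scn4b, a beta subunit of voltage-gated sodium channels, had the largest difference of the list, from 10.46 in WT to 6.37 in HD (-4.10). Rasd2, which encodes the small GTPase Rhes, had 9.17 and 7.18 (-2.00), and its next probe set -1.58. Pde1b, a calcium-dependent phosphodiesterase, had 10.24 and 8.53 (-1.71). Arpp21, a phosphoprotein regulated by cAMP, had 11.16 and 9.55 (-1.61) with -1.69 at its next probe set. At these probe sets Arpp21 had -2.53 and -2.44 in the input, and -1.28 and -2.83 with IgG. Gnal, the G protein alpha subunit that couples dopamine and adenosine receptors to adenylyl cyclase, had 9.93 and 8.56 (-1.36), with -1.46 and -0.92 at its other probe sets above the filter. The further probe sets of Rasd2, Arpp21 and Gnal above the filter thus lay below 0. Ppp1r1b, the dopamine-regulated phosphatase inhibitor DARPP-32, had 11.92 and 11.08 (-0.84), and Adcy5, the main striatal adenylyl cyclase, 11.98 and 11.71 (-0.27). Pde10a had -0.94 at its brightest probe set and -1.40, -2.01 and -1.53 at the next 3, so the value depends on the probe set, and the brightest gave the smallest difference for Pde10a, Bcl11b and Adcy5. Bcl11b, the transcription factor CTIP2, had -0.75 and then -1.09, -2.63 and -2.39, and Adcy5 had -1.65 at its second. That second Adcy5 probe set had -5.50 in the input and -4.58 with IgG. Foxp1, another transcription factor of these neurons, had 9.53 and 8.03 (-1.49), and 5 of its 6 probe sets above the filter were 2-fold lower. Zfp503 (0.22) and Foxp2 (0.13) were the 2 markers above 0.

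**Figure D3:**
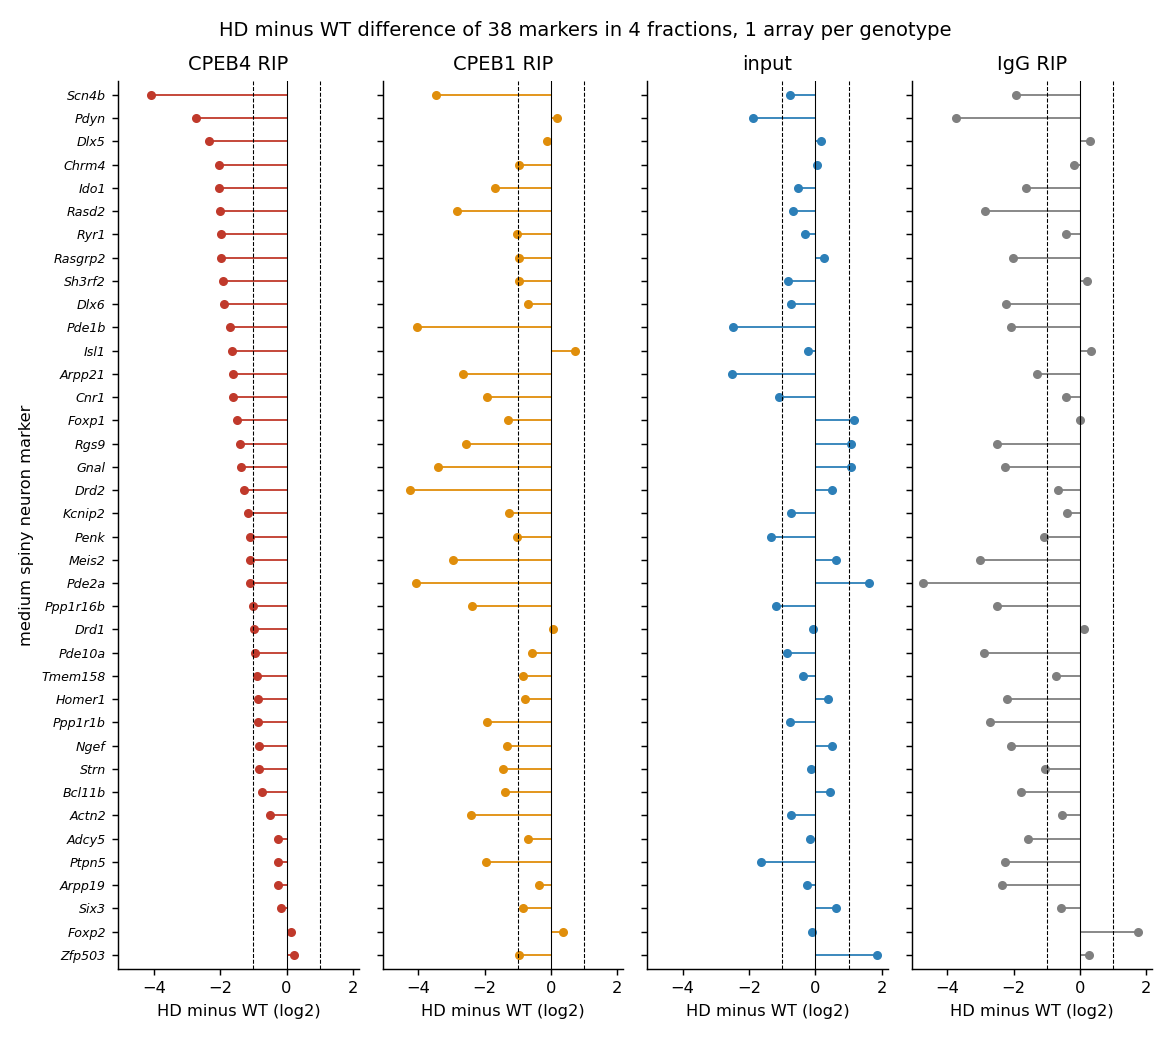
HD minus WT differences (log2, horizontal axis) of the 38 tested medium spiny neuron markers (rows, sorted by the CPEB4 value) in the CPEB4, CPEB1, input and IgG fractions, each from 1 array per genotype; dashed lines mark 2-fold. The markers are mostly left of 0 in all 3 precipitates, with medians of -1.13, -1.28 and -1.59 for CPEB4, CPEB1 and IgG, while the input differences lie on both sides of 0.

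The same markers were also lower with IgG, the precipitate without a CPEB antibody. With IgG 23 of the 38 were 2-fold lower (median -1.59, where all genes give 10%), with CPEB1 22 (median -1.28, 17.9%) and in the input 7 lower and 5 higher (median -0.24, 4.43% and 11.3%). Of the 23 lower with CPEB4, 14 were lower with IgG, 16 with CPEB1 and 6 in the input; 11 of the 38 were lower in all 3 precipitates, where all genes give 1.16%. Read as enrichment of CPEB4 over IgG, the list had a median of 0.94 in WT and 1.33 in HD, and the difference of enrichment was 2-fold lower for 10 members and 2-fold higher for 12 (median 0.14, against 0.01 for all genes). For 7 of the 23 (30.4%) both the IgG and the input difference were within 2-fold, where 818 of all 1320 lower genes (62.0%) met this. Among these, Dlx5 stood at 3.70 and 4.02 with IgG and at 6.74 and 4.39 with CPEB4, in WT and HD. Chrm4 stood at 6.22 and 6.04 with IgG. Kcnip2, a potassium channel interacting protein also among the 7, had -1.15, 0.32 and -3.95 with CPEB4 at its 3 probe sets, and -0.39, 0.55 and -3.45 with IgG. For most of the list, the WT and HD pools already differed in what stuck to IgG. The mean level of the list was 7.23 and 6.97 in the WT and HD inputs, 7.87 and 6.46 with IgG, and 8.99 and 7.71 with CPEB4.

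Cpeb4 mRNA itself was detected mainly in the CPEB4 precipitate and there mainly in WT. Its brightest probe set stood at 7.37 on the WT and 4.46 on the HD CPEB4 array, a difference of -2.90. The other probe sets stood at 6.51 and 3.83 (-2.68) and at 4.21 and 3.18 (-1.03). On the 6 other arrays all 3 probe sets lay between 2.84 and 3.76, and their differences ran from -0.44 to 0.45. All 3 Cpeb4 probe sets are under the filter, since their means include the 6 dim arrays, so Cpeb4 is not among the genes counted above. Cpeb2, another member of the family, was likewise under the filter, with 1 of its 3 probe sets at 7.94 and 5.03 on the WT and HD CPEB4 arrays (-2.91) and at most 3.38 on the other 6, and the other Cpeb2 probe sets at 0.24 and 0.12. Cpeb3 passed the filter with 9.73 and 9.51 (-0.22) and -0.52 at its next probe set. The Cpeb1 probe set, also under the filter, stood at 3.40 in WT and 5.08 in HD (1.68). Htt, the huntingtin gene, gave 0.31, -1.24 and -0.55 at its 3 probe sets above the filter, and both probe sets of the thiamine transporter gene Slc19a3 lay below 3.85 on all 8 arrays.

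**Figure D4:**
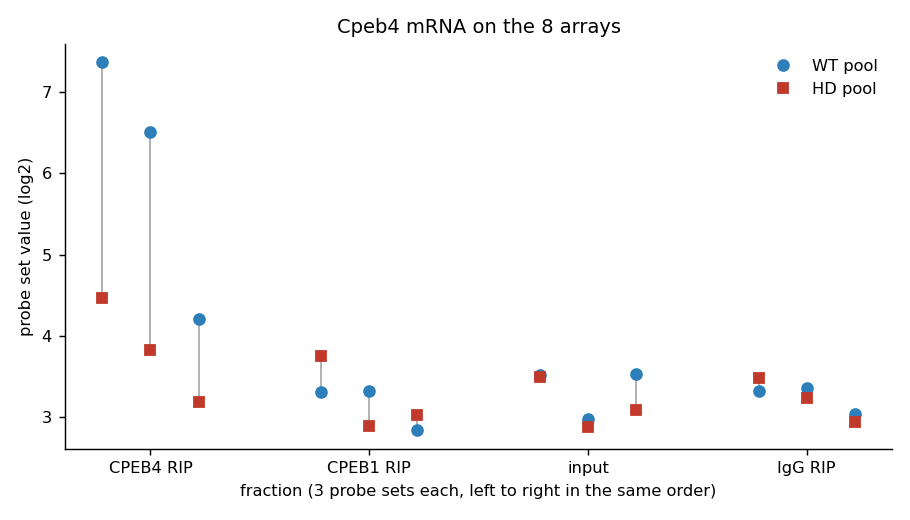
Log2 values (vertical axis) of the 3 Cpeb4 probe sets in the CPEB4, CPEB1, input and IgG fractions (horizontal axis), with the WT pool as circles, the HD pool as squares and a grey line joining them. All 3 are lower in HD in the CPEB4 fraction, by -2.90, -2.68 and -1.03, and the 6 other arrays lie between 2.84 and 3.76.

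Transcripts of the poly(A) machinery with which CPEB proteins work had 7 of 21 members 2-fold lower in HD and 2 higher (median -0.34). These are 33.3% and 9.52%, where all genes give 11.6% and 4.55%. Of the 9 members in the brightest level group 3 were lower, where that group gives 15.8%. The lower members were the cleavage factors Cpsf3 (6.25 in WT and 4.41 in HD, -1.85), Cstf1 (7.41 and 5.64, -1.77) and Sympk (8.38 and 7.18, -1.20), the poly(A) polymerase Papola (7.37 and 6.03, -1.33), the PABP regulator Paip2 (6.38 and 5.11, -1.27), Wdr33 (8.03 and 7.02, -1.02), and Pabpc1, the cytoplasmic poly(A) binding protein (9.29 and 8.17, -1.12). All 7 were within 2-fold between the pools with IgG and in the input. The higher members were the deadenylase Parn (5.30 and 7.88, 2.58) and the noncanonical polymerase Tent4a (7.86 and 9.33, 1.47), whose next probe sets had -0.37 and -0.83, and the next probe set of Cstf1 had -0.16. The choice of probe set thus turned the sign for both higher members. None of the 8 members with a second probe set had it at 2-fold lower. Of 12 CCR4-NOT and PAN deadenylase genes, Cnot7 was lower (8.01 and 6.68, -1.33, with -2.69 and -2.03 at 2 dimmer probe sets), and Pan3 (1.52) and Cnot10 (1.12) were higher. Of 17 genes of microRNA silencing and decapping only Dcp2 passed 2-fold (-1.39), and its next probe set had 2.18, 2-fold the other way.

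mRNAs reported elsewhere as CPEB targets had 4 of 24 lower and 2 higher (median -0.22), near the share of all genes in both directions. The lower ones were the growth factor Vegfa (9.35 in WT and 7.06 in HD, -2.29), Auts2 (-1.77, and -1.70 at its next probe set), Foxp1 (-1.49) and the transcription factor Creb1 (-1.38). Of 30 other RNA-binding regulators 3 were lower and 0 higher (median -0.33). Stau2, a double-stranded RNA binding protein of dendritic transport, stood at 7.93 and 4.56 (-3.38), with -0.63 and -0.91 at its next probe sets and -2.89 with IgG. Elavl4, the neuronal protein HuD, had 6.40 and 4.61 (-1.79) with 0.18 for IgG, and Rbms1 had -1.12.

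Postsynaptic genes had 12 of 33 members 2-fold lower and 0 higher (36.4%, median -0.68), where all genes give 11.6% lower. Of the 14 with a second probe set, 9 had it below 0 and 3 had it 2-fold lower (median -0.20). All genes with 2 probe sets give 16.6% for a 2-fold lower second probe set. The brightest level group held 20 of the postsynaptic genes, of which 5 were 2-fold lower, where that group gives 15.8%. After quantile normalization 5 of the 33 were lower. Glutamate receptor genes made up 5 of the 12. Grm5, the metabotropic receptor mGluR5, stood at 10.22 in WT and 8.48 in HD (-1.74), and at 5.17 and 3.76 with IgG. Grm3, a further metabotropic receptor, stood at 8.56 and 6.40 (-2.16) and at 4.35 and 3.83 with IgG. Both were above IgG in both pools. The AMPA receptor subunits Gria3 (-1.56) and Gria4 (-1.05) and the kainate receptor subunit Grik2 (-1.30, with -0.47 at its next probe set) completed them. GABA-A receptor subunits Gabrb1 (-1.69) and Gabra4 (-1.07) and the scaffolds Dlg2 (-1.59, with -2.12 at its next probe set), Dlg1 (-1.33), Shank3 (-1.33), Agap2 (-1.52) and Sipa1l1 (-1.04) were the rest. In the IgG fraction 8 of 33 were lower (median -0.32) and in the input 1 (median 0.12). As enrichment over IgG, 9 were 2-fold lower in HD and 5 higher (median -0.59). The postsynaptic median kept its sign under the other scalings, from -0.68 to -0.56.

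Presynaptic genes went in both directions, with 10 of 34 lower and 3 higher (median -0.40). These are 29.4% and 8.82%, where all genes give 11.6% and 4.55%. The brightest level group held 24 of them, of which 6 were lower, where that group gives 15.8%. Snap25, a SNARE protein of vesicle fusion, had the largest difference, from 7.35 to 3.83 (-3.52), and 3.70 and 3.78 with IgG. Sv2b, a vesicle glycoprotein, stood at 8.07 and 4.73 (-3.33) and Rims2, of the active zone, at 6.50 and 4.51 (-1.99). Rims1, its relative, stood at 8.80 and 6.82 (-1.98) with CPEB4 and 8.50 and 4.78 (-3.72) with IgG, so its enrichment over IgG was higher in HD. Unc13c (-1.97), Syt7 (-1.62), Napb (-1.59), Napa (-1.27), Stxbp5 (-1.09) and Sv2a (-1.09) were lower as well, and Erc1 (1.23), Rims3 (1.13) and Vamp1 (1.06) higher. Relative to IgG the presynaptic list had 9 lower and 11 higher (median 0.02).

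Of 33 autism risk genes 8 were lower (24.2%, where all genes give 11.6%) and 0 higher (median -0.33). Of the 22 with a second probe set, 11 had it 2-fold lower, where all genes with 2 probe sets give 16.6%. The brightest level group held 20 autism genes, of which 6 were lower, where that group gives 15.8%. With IgG 7 of the 33 were lower (median -0.19, where all genes give 10%), and with CPEB1 13 (median -0.45, 17.9%). As enrichment over IgG, 11 were 2-fold lower in HD and 6 higher (median 0.01), where all genes give 14.3% and 12.1%. Med13l, a subunit of the Mediator kinase module, had the largest negative difference of all genes, 8.50 in WT and 4.15 in HD (-4.35), with -1.50 at a dimmer probe set and -0.34 with IgG. Myt1l, a transcription factor of neurons, had -1.78 and then -2.65 and -0.68, and Tsc1, Reln and Scn2a had -1.28, -1.06 and -1.03. Auts2, Foxp1 and Shank3 were counted with lists above too. Of 57 potassium channel genes 10 were lower and 1 higher (17.5% lower, where all genes give 11.6%, median -0.08). Kcnab1, a beta subunit of Kv1 channels, was the largest, from 9.69 to 7.16 (-2.53), and its next probe set had -3.20. Of 13 genes of cholesterol synthesis 4 were lower (30.8%, where all genes give 11.6%) and 0 higher (median -0.58). They were Sc5d (6.58 and 4.54, -2.03), Insig1 (-2.02), Nsdhl (-1.45) and Srebf2, the regulator of the pathway (-1.06). None of the 13 was 2-fold different in the input, and Insig1 was lower with IgG (-1.11). A second probe set was present for 4 of the 13, below 0 in 3 and 2-fold lower in 0 (median -0.30). The list was dim, with mean levels of 5.76 and 5.22 on the WT and HD CPEB4 arrays.

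Genes whose probe sets above the filter were all 2-fold lower numbered 132. Of these, 95 were at least 2-fold above IgG in WT, where all genes give 25.1%. They were chosen for a WT CPEB4 value above that of HD, so this share follows in part from the choice. Input and IgG differences were within 2-fold for 68 of the 132, a smaller share than the 818 of all 1320 lower genes. Trib2, a pseudokinase, stood at 8.23 in WT and 5.90 in HD (-2.32, and -2.73 at the second probe set), and at 4.59 to 5.53 on the other 6 arrays. Rragd, a Rag GTPase of lysosomal mTORC1 signalling, stood at 8.998 and 6.92 (-2.08 and -2.65), and at 4.93 to 5.61 elsewhere. Samd8 stood at 8.56 and 6.52 (-2.04 and -3.21), and Scamp1, a membrane protein of secretory vesicles, at 7.70 and 5.46 (-2.24 and -2.05). In these 4 the WT CPEB4 array was the brightest of the 8. Mras, a Ras-family GTPase, stood at 8.90 and 6.40 (-2.50 and -2.23) and was lower with CPEB1 too (-2.61). Septin3, a septin of neurons, stood at 9.15 and 7.05 (-2.10 and -2.16), with -3.46 for CPEB1 and -1.17 in the input. Alcam, a cell adhesion molecule, stood at 9.35 and 6.59 (-2.76 and -2.31), with -1.72 for IgG. Rhobtb3 (-2.85 and -2.60) and Stk39, the kinase SPAK (-2.33 and -2.03), stood at 3.97 and 3.56 on the HD array, both under 4.23, and a dimmer probe set of Stk39 had 1.04.

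Of the 16 genes with all probe sets 2-fold higher, 8 (50%) were at least 2-fold above IgG in HD, where all genes give 22.4%. They were chosen for an HD CPEB4 value above that of WT, so this share too follows in part from the choice. Aimp2, a scaffold of the tRNA synthetase complex, stood at 4.89 in WT and 7.74 in HD (2.85 and 4.41), and at 3.99 to 5.03 on the other 6 arrays. Fabp5, a fatty acid binding protein, stood at 4.85 and 6.93 (2.08 and 1.11), and Igf2, a growth factor, at 7.08 and 9.35 (2.28 and 1.71) with 3.07 for CPEB1. Ttr, the thyroid hormone carrier made by choroid plexus, stood at 9.02 and 11.13 (2.11 and 1.94). It was higher in HD in every fraction, with 1.45 for CPEB1, 1.36 for IgG and 3.89 in the input, where the HD array stood at 10.49. The 7 tested markers of choroid plexus and ependyma were all above 0 with CPEB4 (median 0.39), and Ttr alone was 2-fold higher. Of the 3 with a second probe set, 2 had it below 0 (median -0.30). All 13 tested olfactory, vomeronasal and taste receptor genes, which striatum is not known for, were above 0 too (median 0.34). The dimmest level group had a median of 0.16. The mean level of the choroid plexus and ependyma markers was 5.65 in the WT and 6.61 in the HD input, and 5.39 and 6.01 with CPEB4. The part of neighbouring tissue in the pools in these differences was not tested.

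The largest single differences mostly rested on 1 probe set. Upward they were Rela, the p65 subunit of NF-kappaB (3.61 in WT and 8.30 in HD, 4.69), Sprr2a1 (4.58), Fam118b (4.27), Elovl7 (4.14), the histone gene H2bc22 (4.05), Lgi3 (3.39), Ss18l1 (3.38), Grb10 (3.14), Aplf (3.04) and Mri1 (2.95). In 5 of the 10 the WT value was under 4.23, so the size of the difference depends on the array background. Sprr2a1 stood at 11.11 and 9.69 with IgG, above its CPEB4 values of 4.29 and 8.86. Grb10, an adaptor of insulin signalling, had -0.46 at its next probe set. Other probe sets of Fam118b, Elovl7 and H2bc22, all under the filter, had at most 0.38. Downward, after Med13l, came Lypd6 (8.68 and 4.34, -4.34), Selenoi, an ethanolamine phosphotransferase (-4.23), Scn4b (-4.10), Rab4a, a GTPase of endosome recycling (-3.95), Trappc10 (-3.91), Oprd1, the delta opioid receptor (7.86 and 4.04, -3.81), Rcn1 (-3.70), Rimklb (-3.60) and Slc35c1 (-3.57). In 5 of these 10 the HD value was under 4.23. The dimmer probe sets of Lypd6 had -1.36 and -0.67, and the next of Rab4a had -0.51.

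Set against IgG in each pool, 2845 genes were 2-fold enriched with CPEB4 in WT (25.1%) and 2540 in HD (22.4%), with 1627 in both, which is 57.2% of the WT list and 64.1% of the HD list. The 2 lists come from different arrays. Among the 1627 shared genes 275 were 2-fold lower in the HD CPEB4 array (16.9%) and 75 higher (4.61%). Their median difference was -0.29 with CPEB4, 0.20 in the input, -0.10 with IgG and -0.93 with CPEB1. Of the 3758 genes enriched in at least 1 pool, the enrichment was 2-fold lower in HD for 1213 (32.3%) and 2-fold higher for 915 (24.3%); a gene had to be high in at least 1 pool to be counted here. Over all genes the shares were 14.3% and 12.1%.

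The most extreme differences of enrichment had larger differences on the IgG arrays than on the CPEB4 arrays. Smad2 had 7.69, with CPEB4 values of 3.39 and 5.80 and IgG values of 8.95 and 3.66 in WT and HD. Usp7, a deubiquitinase, had 6.12, although its CPEB4 values were 10.04 and 10.19. Cox5a, Rusc2 (6.24), Miga2 (6.04) and Sugp2 (5.99) likewise had IgG differences between -4.74 and -3.23. The other probe sets of Cox5a above the filter had -0.10 and -0.19 with IgG, and 0.09 and -0.17 with CPEB4. In the other direction Pacs2 had -6.83 with CPEB4 values of 9.39 and 9.58 and an IgG difference of 7.01. Rrp7a (-6.55), Tmem245 (-6.34), Slc43a2 (-6.06), Rnf216 (-6.05) and Dtna (-5.93) had IgG differences between 3.45 and 4.73. For all 12 the IgG difference was larger in size than the CPEB4 difference at the brightest probe set.

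Ribosomal and respiratory genes differed far less between the CPEB4 arrays than between the others. Of 67 cytosolic ribosomal protein genes 0 were 2-fold different with CPEB4 (median -0.09; between -0.09 and 0.08 over the scalings), while 36 were higher and 2 lower in the input (median 1.02), 27 lower and 3 higher with IgG (median -0.81) and 25 lower with CPEB1 (median -0.70). Their mean level with CPEB4 was 10.09 and 9.95 in WT and HD, against 8.44 and 9.60 in the input. Of 37 complex I genes 2 were lower and 4 higher with CPEB4 (median 0.05), against medians of 0.65 in the input, -0.75 with IgG and -1.19 with CPEB1. Of 40 genes of complexes III and IV and ATP synthase 4 were lower and 2 higher (median 0.10), against 0.59, -0.63 and -0.70. Relative to IgG, 19 of 37 complex I genes had a 2-fold higher and 3 a 2-fold lower enrichment in HD. Of the 67 ribosomal genes 25 were higher and 8 lower, where all genes give 12.1% higher and 14.3% lower.

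With CPEB4, markers of other cell types did not share the values of medium spiny neuron markers. Of 15 astrocyte genes 2 were lower, Aldoc (-1.21) and Sox9 (-1.04), and 1 was higher, Gfap, the glial filament protein, from 7.27 to 8.81 (1.54), with 2.48 in the input and 1.84 with IgG. Of 15 oligodendrocyte genes 2 were lower, Mog (-1.89) and Fa2h (-1.03), and 3 higher, Mag (1.87), Gpr37 (1.18) and Cnp (1.06). Of 10 microglia genes Aif1 (-2.19) and Cx3cr1 (-1.52) were lower, and of 14 endothelial and mural genes 0 passed 2-fold. Of 10 striatal interneuron genes Npy was lower (-1.78), and of 6 cortical excitatory neuron genes Slc17a7, the vesicular glutamate transporter, was lower, with 8.09 and 4.86 (-3.23) and with -1.12 in the input. Of 3 oligodendrocyte precursor genes Vcan was lower (-1.08), and 0 of 3 blood genes passed 2-fold. Mean levels of the astrocyte list were 7.87 and 7.69 with CPEB4 in WT and HD and 7.68 and 7.94 in the input. With IgG, Aldoc, Aif1 and Cx3cr1 had -3.99, -4.30 and -1.09, and Cnp, higher with CPEB4, had -4.50. More astrocyte genes were 2-fold lower with CPEB1 (8 of 15, median -1.06) and IgG (4, median -0.54), where all genes give 17.9% and 10%. Of 10 interneuron genes 4 were 2-fold lower with CPEB1 (median -0.65). The CPEB1 medians of oligodendrocyte, microglia and endothelial genes were -0.14, -0.13 and 0.28. The share of each cell type in the pools, and its part in these differences, was not tested.

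**Figure D5:**
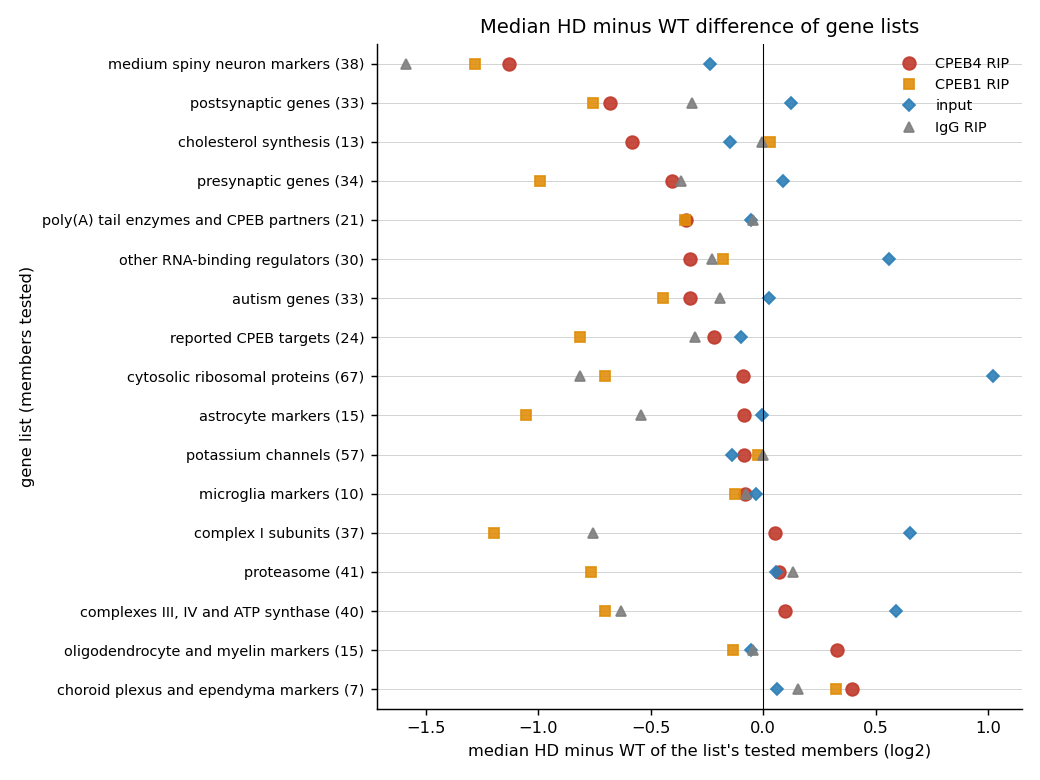
Median HD minus WT difference (log2, horizontal axis) of the tested members of 17 gene lists (rows, members tested in brackets) in the CPEB4, CPEB1, input and IgG fractions, 1 array per genotype each. Medium spiny neuron markers have the lowest CPEB4 median, -1.13, with CPEB1 and IgG further left, while cytosolic ribosomal protein genes have a CPEB4 median of -0.09 and an input median of 1.02.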

How the data were processed

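The authors deposited log2 probe set values of 8 Affymetrix arrays, made with RMA per the submitters' processing notes. The RMA version is not given in these sources, nor whether 1 run covered all arrays. They were used as deposited. Of 45101 probe sets, 28898 had 1 gene symbol, 551 several and 15652 none in the platform annotation, and symbols of 28689 were matched through RefSeq's gene table of GRCm38.p6. The number of arrays limits the precision, and no test was run. Differences were computed in Python 3.11.15 with pandas 2.3.3, and alternative scalings with limma 3.58.1 in R 4.3.3; counting was checked on simulated data.

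The members and the 42 gene lists were chosen with earlier results of these data known. Named were the 10 genes each way whose probe sets all passed 2-fold, ranked by the smallest, the 10 largest differences each way, the 6 largest differences of enrichment over IgG each way, up to 4 members per list, and, in every case, Htt, Slc19a3 and the Cpeb family; genes known only by a clone identifier were skipped. Further list members are given where they passed 2-fold. No sequence is shown, since 3′ untranslated regions were not used here.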

Additional observations from a re-analysis of the deposited data

Results flagged for a closer look

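Of the 40 genes named for the largest differences or for like differences at all probe sets, 5 had an input or IgG difference past 2-fold with the sign opposite to CPEB4. With CPEB1 counted too, 53 of all 158 named genes past 2-fold with CPEB4 (33.5%) had an opposite 2-fold difference in at least 1 other fraction, and so had 444 of all 1836 such genes (24.2%). With a single array per fraction and pool, none of these contrasts between fractions was tested. Rab4a, a GTPase of endosome recycling, had -3.95 with CPEB4 and 3.66 in the input, and stood at 4.28 and 7.95 on the WT and HD input arrays. Atox1, a copper chaperone, had 1.78 with CPEB4 and -1.16 in the input. Phldb1 had 1.70 with CPEB4 and -1.20 in the input. Rhobtb3 had -2.85 with CPEB4 and 1.31 with IgG. Sprr2a1 had 4.58 with CPEB4 and -1.43 with IgG.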

How the results depend on the processing

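As reported, 516 genes were higher and 1320 lower in the HD CPEB4 precipitate, and among enriched genes 915 had higher and 1213 lower enrichment in HD. Quantile normalization gave 745 lower genes, 714 with lower enrichment and 5 postsynaptic genes lower; the cause was not tested. The 75th percentile filter, which tests fewer genes, gave 842 lower, 775 with lower enrichment and 17.9% of higher genes with a like next probe set. Averaging all probe sets per gene gave 327 higher and 597 with higher enrichment, and turned the sign of Dcp2 (0.39), Sugp2 (-0.62) and Ube2d2a (-0.73). At 1.5-fold there were 1372 higher and 2267 lower, 1438 and 1939 for enrichment, and 20 postsynaptic genes lower. At 3-fold there were 172 and 565, 490 and 562, 4 postsynaptic and 14 medium spiny neuron genes lower, and 14.8% of lower genes had a like next probe set. Input in place of IgG gave 505 with higher enrichment. Subtracting the IgG difference gave 1375 higher genes, and, for gene lists as an alternative added after seeing the data, turned the medium spiny neuron median to 0.14 with 10 lower. Subtracting the input difference gave 1176 higher and 2247 lower. Of the other list medians 6 of 360 values moved by more than the spread between probe sets, and of 1014 values for named genes 50 moved and 3 changed sign. No paired analysis was possible because each group holds 1 array. No replicate could be left out for the same reason, and with 1 array per genotype the difference between pools and between arrays cannot be told apart.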

Other observations

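Genes of protein turnover and mitochondrial translation had both higher and lower members. Over all genes 11.6% were lower and 4.55% higher. Of 68 mitochondrial ribosomal protein genes 7 were 2-fold lower in the HD CPEB4 precipitate and 8 higher (median -0.04), and of 41 proteasome genes 3 and 4 (median 0.07). Of 31 USP deubiquitinases 4 were lower and 3 higher; the largest was Usp9x, an X-linked deubiquitinase, with -2.51. Of 21 ubiquitin conjugating enzymes 2 were lower and 1 higher, with Ube2v2 at -2.81. Of 29 autophagy genes 3 were lower and 4 higher, with Atg3, the E2-like enzyme of LC3 lipidation, at 2.50. Of 38 RAB GTPases 6 were lower and 4 higher; after Rab4a the largest was Rab2a (-2.69). Of 56 heat shock and DNAJ genes 3 were lower and 2 higher. Of 26 genes of the unfolded protein response 2 were lower and 2 higher, with Creld2 at 2.82.

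Immediate early genes had 2 of 16 lower and 2 higher. For these and the lists that follow, all genes give 11.6% lower and 4.55% higher. Per1, a clock gene induced by activity, stood at 8.74 in WT and 5.52 in HD (-3.22) with 5.27 and 5.26 on the IgG arrays. Fosb had 2.07 with CPEB4 and -2.94 with IgG. Of 36 translation initiation factors 6 were lower and 4 higher, with Eif1b at -2.92. Of 38 DEAD and DEAH helicases 6 were lower and 3 higher, with Ddx27 at 2.22 and Ddx5 at -2.08. The next probe sets of Ddx27 and Ddx5 had 0.62 and 0.13. Of 18 hnRNP and SR protein genes 2 were lower and 1 higher, Hnrnph1 (2.09). Of 16 genes for huntingtin and its interactors 2 were lower, Zdhhc17 (-2.40) and Rasd2, and 1 was higher, Hap1 (2.24, with 1.96 in the input). Of 18 neurodegeneration genes Atxn7 was lower (-1.48) and Psen2 higher (1.18), of 29 kinesin genes Kif5c lower (-1.04) and Klc4 higher (1.34), and of 10 thiamine genes 0 passed 2-fold. The next probe sets of Atxn7, Kif5c and Klc4 had 0.29, -0.76 and 0.22. Atxn7 had 1.34 with CPEB1 and 1.22 with IgG. Of 9 nuclear long noncoding RNAs Miat (2.13) and Mirg (1.35) were higher and Tug1 lower (-1.04), and Miat and Mirg were higher with IgG as well (3.51 and 4.15). The next probe set of Miat had 0.43 with CPEB4. Of 13 olfactory, vomeronasal and taste receptor genes, which striatum is not known for, 0 passed 2-fold.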
